A study of Mus musculus with 14 samples.

Results

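The 5 genes Cybb, Cyba, Ncf1, Ncf4 and Rac2 encode subunits of the phagocyte NADPH oxidase, and the binding of transcription factors at them was followed through blood cell development. They were chosen by function, as 5 of the 21774 protein-coding genes on mouse chromosomes 1 to 19, X and Y. A peak was counted at a gene when it overlapped the RefSeq span of the gene (GRCm38) or the 20 kb on either side of it by at least 1 bp. By this rule 94 of the 158488 peaks in 14 lists lay at the 5 genes. Each list came from chromatin immunoprecipitation followed by sequencing (ChIP-seq) with 1 antibody at 1 stage, against C/EBPβ, ELK4, GATA1, GATA2, GFI1B, PU.1 or RUNX1. The cells were sorted from cultures of mouse embryonic stem cells of strain 129 that carry a GFP reporter of Brachyury. Mesoderm (MES) was Bry-GFP+ and FLK1-, the hemangioblast (HB) Bry-GFP+ and FLK1+, hemogenic endothelium (HE) Tie2+, cKit+ and CD41-, hematopoietic progenitors (HP) CD41+, and macrophages (MAC) CD11b+. Macrophages were grown from CD41+ cells by terminal differentiation, and carrier mRNA and histone H2B were added to the chromatin of the few HE cells. All stages came from cultured stem cells and not from animals, no expression was measured in these files, and the identity of the sorted cells could therefore not be checked against marker genes here.

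The phagocyte oxidase makes superoxide from oxygen and NADPH, and neutrophils and macrophages use it to kill microbes they have engulfed. Its catalytic core, flavocytochrome b558, sits in the membrane and is built from gp91phox (Cybb) and p22phox (Cyba). In a resting cell the organizer p47phox (Ncf1) and its partner p40phox (Ncf4) are held in the cytosol, and upon activation they move to the membrane together with the GTPase Rac2. Inherited loss of the membrane or cytosolic subunits causes chronic granulomatous disease. PU.1, an ETS factor encoded by Spi1, and C/EBPβ, a basic leucine zipper factor, both act in the differentiation of macrophages.

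Most of the peaks at the 5 genes were in the macrophage lists of these 2 factors. PU.1 in MAC had 51 peaks and C/EBPβ in MAC 31, which together made 82 of the 94. PU.1 in HP had 9 peaks, and C/EBPβ in HP, RUNX1 in HP and C/EBPβ in MES had 1 each. Of the 70 combinations of gene and list, 17 held a peak, 10 of them in the 2 macrophage lists. All 5 genes had a peak of MAC PU.1, as did 79.1% of all coding genes, and all 5 had a peak of MAC C/EBPβ, as did 73.8%. Most coding genes had a peak in these 2 lists, so the presence of a peak there says little about the 5 genes. HP PU.1 was found at 4 of the 5 genes, against 38.2% of all coding genes. HP C/EBPβ was found at 1 of 5 (14.8% of coding genes), HP RUNX1 at 1 of 5 (7.79%) and MES C/EBPβ at 1 of 5 (6.47%).

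The other 8 lists had no peak at any of the 5 genes. They held 72 to 2018 peaks, and few coding genes had a peak in them, namely 4.66% in MES ELK4, 4.24% in HB C/EBPβ, 0.363% in HB GATA2, 0.684% in HE C/EBPβ, 1.75% in HP GATA1, 3.36% in HP GATA2, 11.8% in HP GFI1B and 0.478% in MAC RUNX1. A count of 0 in 5 genes is near such shares, and the absence of a peak in these lists is not a result about the oxidase genes. There was 1 list per factor and stage, so differences between lists have no replicate check, and no test was made. The length of the lists, from 72 peaks (MAC RUNX1) to 82866 (MAC PU.1), moved with the number of peaks at the genes, and its part in the differences between stages was not tested.

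**Figure D1:**
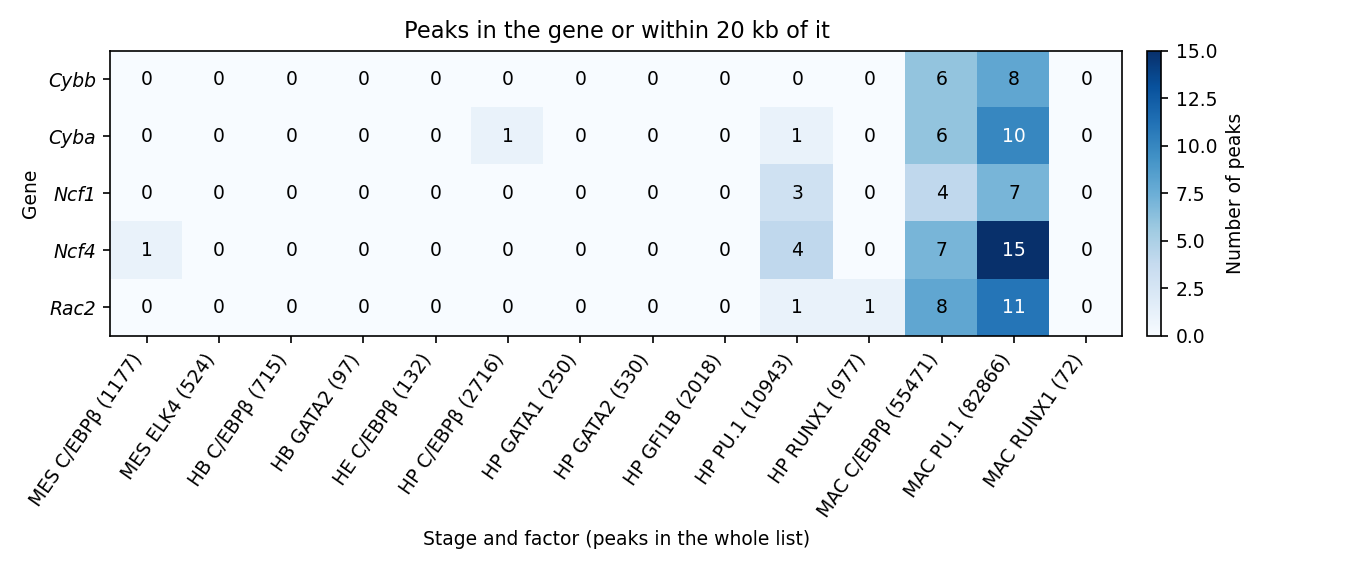
Number of peaks at each of the 5 genes, flanks of 20 kb included (rows), in each of the 14 lists (columns, with the number of peaks in the whole list in brackets), where darker blue stands for more peaks. The counts are highest in the MAC PU.1 column, from 7 at Ncf1 to 15 at Ncf4, and the columns of 8 lists hold 0 throughout.

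Cybb, the gene of the catalytic subunit gp91phox, lies on the minus strand at chrX:9435252-9487766. It had the longest window of the 5 (92.5 kb), with 8 peaks of MAC PU.1 and 6 of MAC C/EBPβ. In each of the other 12 lists it had 0 peaks, and it was the only gene of the 5 without a peak of HP PU.1. Both macrophage factors bound at the start of its curated transcript, with the PU.1 centre 55 bp downstream of the start and the C/EBPβ centre 12 bp upstream of it. They also met farther upstream, at PU.1 and C/EBPβ centres 5287 and 5231 bp from the start, in an intron of a longer predicted transcript. The third shared region lay in an intron downstream, with centres 8813 and 8641 bp from the start. The remaining 5 PU.1 and 3 C/EBPβ peaks did not overlap a peak of the other factor. All 14 peaks had Cybb as the gene with the nearest start.

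The promoter of Cybb is shown because the C/EBPβ peak covered all of it and the PU.1 peak part of it, together with the shared upstream region and the intronic C/EBPβ region, whose 400 bp peak held 3 copies of the C/EBP consensus, 2 of them in the stretch printed. Consensus letters were searched on both strands, with GAGGAAGT for PU.1, TTGCNNAA for C/EBP, TGTGGTT for RUNX, AGATAA for GATA and TGANTCA for AP-1. Sequences are from RefSeq (GRCm38), read 5′ to 3′ on the minus strand, which is the strand of the gene, and matches to these letters on either strand are in capitals.
Cybb promoter, chrX:9469325-9469524: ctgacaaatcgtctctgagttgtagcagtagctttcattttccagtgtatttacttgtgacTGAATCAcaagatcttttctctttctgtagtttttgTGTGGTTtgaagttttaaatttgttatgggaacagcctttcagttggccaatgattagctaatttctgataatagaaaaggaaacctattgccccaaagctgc
Cybb upstream PU.1 region, chrX:9474561-9474661: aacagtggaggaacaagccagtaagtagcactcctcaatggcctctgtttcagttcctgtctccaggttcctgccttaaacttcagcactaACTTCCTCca
Cybb intronic C/EBPβ region, chrX:9450128-9450228: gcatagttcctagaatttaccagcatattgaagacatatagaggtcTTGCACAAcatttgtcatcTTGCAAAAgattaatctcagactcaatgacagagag
The 200 bases upstream of the start held an AP-1 and a RUNX match and none of the PU.1 or C/EBP letters, which says only that these letters are not in this window. Among 32851 promoter windows of the same length, 5.48% held the AP-1 letters and 3.49% the RUNX letters. The upstream region held the PU.1 letters on the opposite strand, 45 bp from the centre of the PU.1 peak and 11 bp from that of the C/EBPβ peak. The intronic region, whose centre was 19146 bp downstream of the start, had a C/EBP match at its centre and no peak of PU.1.

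Cyba, which encodes p22phox, the partner that stabilises gp91phox, lies on the minus strand at chr8:122424771-122432940 and is the shortest of the 5 genes (8.17 kb). It had 10 peaks of MAC PU.1, 6 of MAC C/EBPβ, 1 of HP PU.1 and 1 of HP C/EBPβ, and 0 in the other 10 lists. It was thus the only gene of the 5 with a peak of C/EBPβ in HP. The HP peaks of the 2 factors did not lie together. The HP C/EBPβ peak was centred 572 bp downstream of the start, 21 bp from the centre of a MAC C/EBPβ peak at 593 bp. The HP PU.1 peak was centred 2524 bp downstream, 6 bp from the centre of a MAC PU.1 peak at 2530 bp. In MAC each of these sites was covered by both factors, since a PU.1 peak at 383 bp joined the C/EBPβ site and a C/EBPβ peak at 2777 bp joined the PU.1 site. The 200 bases directly upstream of the start lay in no peak, between the PU.1 peaks centred 383 bp downstream and 512 bp upstream.

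Both intronic regions of Cyba are shown because they were bound in HP and in MAC, beside an upstream C/EBPβ region with the consensus at its centre.
Cyba intronic PU.1 region of HP and MAC, chr8:122430366-122430466: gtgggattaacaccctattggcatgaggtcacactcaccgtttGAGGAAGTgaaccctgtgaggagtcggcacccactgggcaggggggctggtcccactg
Cyba intronic PU.1 region next to the C/EBPβ site of HP and MAC, chr8:122432507-122432607: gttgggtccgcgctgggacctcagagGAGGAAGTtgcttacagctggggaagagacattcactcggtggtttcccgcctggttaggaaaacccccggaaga
Cyba upstream C/EBPβ region, chr8:122436736-122436836: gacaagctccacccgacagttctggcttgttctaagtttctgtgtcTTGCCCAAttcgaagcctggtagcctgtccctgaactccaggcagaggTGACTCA
These are again minus strand, with matches in capitals. The PU.1 letters lay 3 bp from the centre of the HP PU.1 peak and 9 bp from that of the MAC PU.1 peak over it, and 20 bp from the centre of the MAC PU.1 peak nearest the start. Neither the HP nor the MAC C/EBPβ peak near the start held the C/EBP letters. The upstream C/EBPβ peak, centred 3846 bp from the start in an intron of Mvd, an enzyme gene of the mevalonate pathway, held the C/EBP letters at its centre and an AP-1 match 48 bp from it. The window of Cyba holds other genes, and 5 of its 18 peaks had the start of the cytokine gene Il17c nearest and 2 that of Mvd.

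Ncf1, which encodes the organizer p47phox, lies on the minus strand at chr5:134220053-134229628. It had 7 peaks of MAC PU.1, 4 of MAC C/EBPβ and 3 of HP PU.1, and 0 in the other 11 lists. These were the fewest macrophage peaks of each factor among the 5 genes in the 20 kb windows. When each peak was given to the gene with the nearest start, Ncf1 had 8 of MAC PU.1 and 5 of MAC C/EBPβ. The fewest were then at Cyba, with 5 and 4. PU.1 was centred at the start in both stages, 10 bp upstream in HP and 9 bp upstream in MAC. The other HP sites lay 3734 bp upstream and 15008 bp downstream, the last in an intron of Gtf2ird2, and the centres of the MAC peaks over them were 2 and 3 bp away. C/EBPβ was not found at the start, where its closest centre was 3169 bp upstream, which made Ncf1 the only gene of the 5 without a C/EBPβ peak within 2 kb in MAC. C/EBPβ joined PU.1 at 2 regions, the HP site 15 kb downstream and a region centred 12342 bp upstream in an intron of Gtf2i.

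The promoter of Ncf1 is shown as a start bound by PU.1 in HP and MAC without C/EBPβ, beside the MAC PU.1 region downstream of the gene.
Ncf1 promoter, chr5:134229626-134229825: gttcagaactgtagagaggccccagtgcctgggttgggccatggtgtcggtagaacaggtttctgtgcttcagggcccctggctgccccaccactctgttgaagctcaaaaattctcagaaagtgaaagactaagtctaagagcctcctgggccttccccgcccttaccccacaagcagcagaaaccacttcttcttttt
Ncf1 downstream PU.1 region, chr5:134218301-134218401: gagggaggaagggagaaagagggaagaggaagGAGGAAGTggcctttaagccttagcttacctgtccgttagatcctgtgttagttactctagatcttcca
None of the 5 searched consensus sequences was in the 200 bases upstream of the start, and none of the 3 HP peaks held the PU.1 letters. The single Ncf1 peak that did was the MAC region centred 11274 bp downstream of the start, 14 bp from its centre. The nearest start was that of Ncf1 in 10 of its 14 peaks, and that of Gtf2ird2, a gene of the TFII-I transcription factor family, in the other 4.

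Ncf4, which encodes p40phox, lies on the plus strand at chr15:78244164-78262582 and was the most densely bound of the 5 genes in both PU.1 lists. It had 15 peaks of MAC PU.1, 7 of MAC C/EBPβ, 4 of HP PU.1 and 1 of MES C/EBPβ, and 0 in the other 10 lists. All 4 HP PU.1 peaks lay in the gene itself, at 2, 2994, 3756 and 13563 bp from the start of the curated transcript. At the start, HP PU.1, MAC PU.1 and MAC C/EBPβ overlapped. The MAC PU.1 centre lay 3 bp upstream of the curated start, and the MAC C/EBPβ centre lay 81 bp from the MAC PU.1 centre. Both PU.1 peaks there held 3 copies of the PU.1 letters. The 3 lists overlapped again in the intron 3.02 kb downstream. The HP sites at 3756 and 13563 bp were joined by PU.1 alone in MAC, with centres 33 and 52 bp away, the widest spacing of the 9 HP sites. A region at 17.5 kb was called in both macrophage lists over a coding exon. The MES C/EBPβ peak was centred 34769 bp downstream, overlapped no other peak at the gene, and had as its nearest start that of Csf2rb2, a cytokine receptor subunit, which was nearest to 4 peaks of this window in all. Distances at Ncf4 run to the nearest of 4 annotated starts, of which those upstream of the curated start are predicted.

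Rac2, the GTPase of blood cells that switches the oxidase on, lies on the minus strand of the same chromosome at chr15:78559169-78572783, 297 kb from Ncf4. It had 11 peaks of MAC PU.1, 8 of MAC C/EBPβ, 1 of HP PU.1 and 1 of HP RUNX1, and 0 in the other 10 lists. The count of C/EBPβ peaks in MAC was the highest of the 5 genes in the 20 kb windows. By nearest start it was 5, against 6 each at Cybb and Ncf4. Both macrophage factors were centred at the start, PU.1 3 bp and C/EBPβ 22 bp upstream of it. A further C/EBPβ peak without PU.1 lay 921 bp upstream and held the C/EBP letters 79 bp from its centre. The HP PU.1 peak lay in an intron 1008 bp downstream, 11 bp from the centre of a MAC PU.1 peak. With 20 kb on each side, Rac2 was the only gene of the 5 with a RUNX1 peak. The peak was centred 9300 bp upstream, next to but not overlapping a region of both macrophage factors centred 8.75 kb upstream. That RUNX1 peak did not hold the RUNX letters. Of the 21 peaks in the window, 4 had the start of Cyth4, a guanine nucleotide exchange factor gene, nearest and 4 that of Sstr3, a somatostatin receptor gene.

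**Figure D2:**
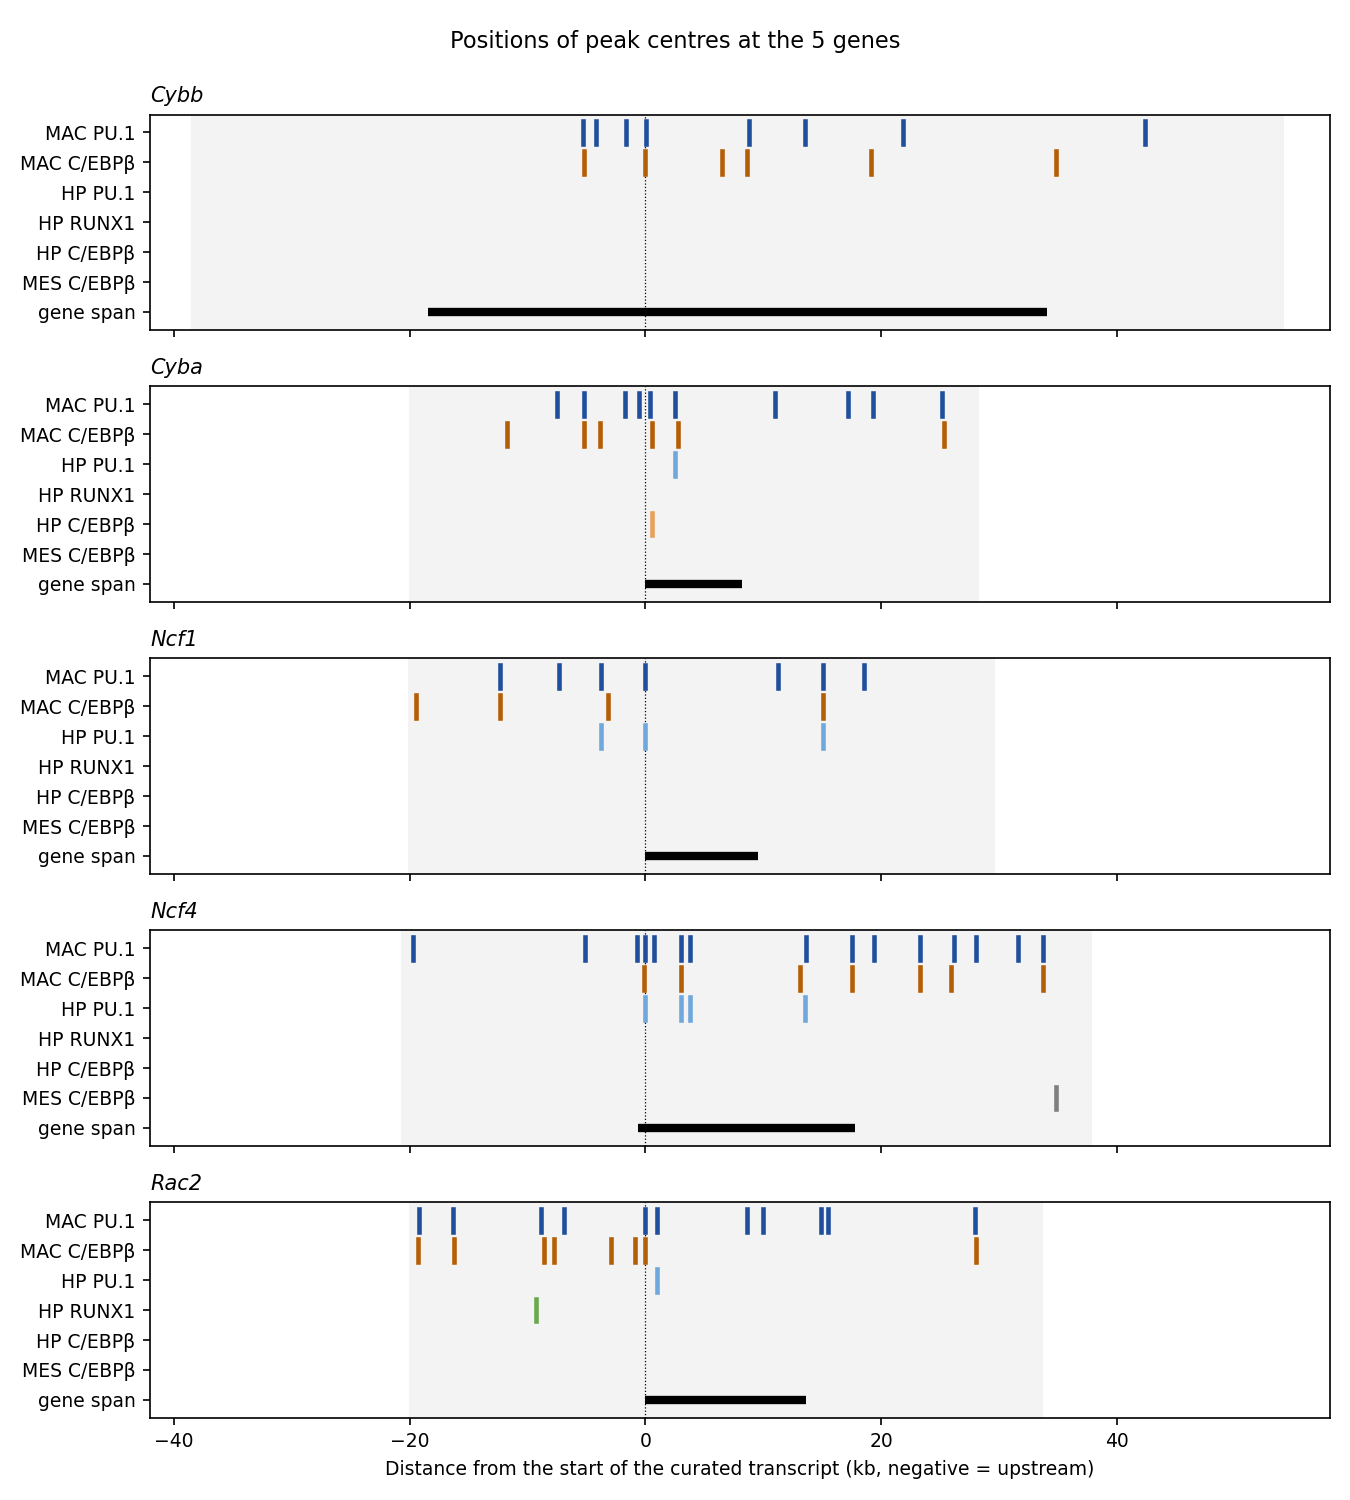
Centres of the peaks (coloured ticks, 1 row per list) at the 5 genes against their distance in kb from the start of the curated transcript, with the gene span as a black bar and the counting window in grey. Every tick of HP PU.1 (light blue) stands under a tick of MAC PU.1 (dark blue), and the row of HP PU.1 is empty at Cybb.

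All 5 genes had a MAC PU.1 peak centred within 2 kb of a transcript start, as did 52.4% of all coding genes. The distance from the closest centre to the start was 3 bp at Ncf4 and Rac2, 9 bp at Ncf1, 55 bp at Cybb and 383 bp at Cyba. MAC C/EBPβ was found within 2 kb at 4 of 5, all but Ncf1, against 39.1% of coding genes. HP PU.1 was there at 3 of 5 (Ncf1, Ncf4 and Rac2), against 10.5%, and HP C/EBPβ at 1 of 5 (Cyba), against 4.31%. Most peaks lay farther away, since 20 of the 94 were within 2 kb of the start of their gene. In all, 31 peaks were centred in an intron and 5 in an exon of the 5 genes, 18 in another gene and 40 between genes. The start nearest to the peak was that of the oxidase gene in 70 peaks and of another gene in 24.

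The 5 genes differed among themselves in how densely they were bound. Per 10 kb of window, MAC PU.1 had 2.57 peaks at Ncf4, 2.08 at Cyba, 2.05 at Rac2, 1.41 at Ncf1 and 0.865 at Cybb, with a median of 2.05 against 0.524 over all coding genes. The density of Ncf4 was reached by 0.808% of all coding genes, those of Cyba and Rac2 by 2.97% and 3.12%, that of Ncf1 by 11.9% and that of Cybb by 31.5%. By count alone, without regard to window length, the shares were 4.58% for Ncf4, 13.5% for Cyba, 10.6% for Rac2, 28.1% for Ncf1 and 21.9% for Cybb. These windows include peaks nearer to other genes. When each peak was given to the gene with the nearest start, MAC PU.1 had 12 peaks at Ncf4, 8 at Cybb, 8 at Ncf1, 6 at Rac2 and 5 at Cyba. The order of the genes below Ncf4 thus depended on the assignment. MAC C/EBPβ had 1.49 peaks per 10 kb at Rac2, 1.25 at Cyba, 1.2 at Ncf4, 0.807 at Ncf1 and 0.649 at Cybb, with a median of 1.2 against 0.317. Cybb and Ncf1 had the lowest densities in both lists by this window. HP PU.1 had 0.685 peaks per 10 kb at Ncf4 and 0.605 at Ncf1, densities reached by 0.703% and 1.3% of coding genes, while their counts of 4 and 3 were reached by 2.51% and 5.95%. It had 0.208 peaks per 10 kb at Cyba and 0.187 at Rac2, densities reached by 16.5% and 19.9% of coding genes and counts of 1 reached by 38.2%, and 0 at Cybb. The windows were of ordinary length, with a median of 53.6 kb for the 5 genes and 57.2 kb for all coding genes.

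**Figure D3:**
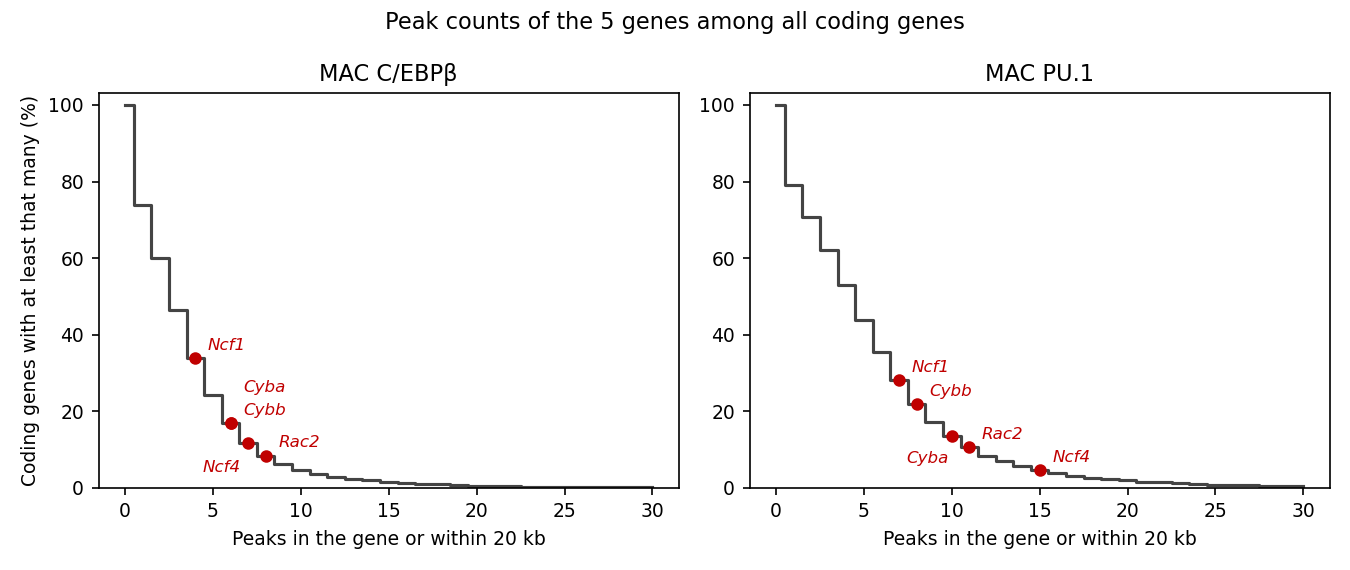
Share of all coding genes (vertical axis, percent) with at least the number of peaks on the horizontal axis, flanks of 20 kb included, for MAC C/EBPβ on the left and MAC PU.1 on the right, with the 5 genes as red points. The 15 MAC PU.1 peaks of Ncf4 were reached by 4.58% of coding genes and the 7 of Ncf1 by 28.1%.

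To see whether sites of progenitors were kept, the HP peaks were compared with those of macrophages. All 9 HP PU.1 peaks at the genes overlapped a MAC PU.1 peak, a share of 100% with an exact (Clopper-Pearson) 95% interval from 66.4 to 100%, and so did 97% of the whole HP PU.1 list, so that the oxidase genes were like the rest. Intervals cover counting error only and take the peaks as independent, although these lie in the windows of 5 genes. A site common to both stages was thus found at 4 of the 5 genes, against 37.8% of all coding genes, and at all 4 with an HP PU.1 peak, as at 99% of the coding genes with such a peak. The centres of the 9 pairs were 1 to 52 bp apart, with a median of 5 bp against 13 bp over the whole list. Read the other way, 9 of the 51 MAC PU.1 peaks (17.6%, interval 8.4 to 30.9%) were already in the HP list, against 12.8% of the whole MAC list. The other 42 were called in MAC only, among them all 8 at Cybb. Of the 31 MAC C/EBPβ peaks, 1 was in the HP C/EBPβ list (3.23%, interval 0.0816 to 16.7%), against 4.48% of the whole list.

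To see where the 2 macrophage factors met, their peaks were compared with each other. Of the 31 MAC C/EBPβ peaks, 20 overlapped a MAC PU.1 peak (64.5%, interval 45.4 to 80.8%). The share was 42.5% in the whole C/EBPβ list and 43.7% of its peaks in the window of any coding gene, and whether these lay below the interval depended on the setting. They did with 20 kb and with 50 kb on each side (69.4%, interval 54.6 to 81.7%). They lay inside it with 10 kb (60.9%, interval 38.5 to 80.3%) and for peaks nearest to the start of the gene (53.8%, interval 33.4 to 73.4%). Within the gene spans alone the share was 75% (interval 42.8 to 94.5%), with a bound between the 2 values. With 200 bp of overlap asked for, it was 51.6% (interval 33.1 to 69.8%) against 35.6% of the whole list, which lies inside. Because the interval takes peaks as independent, these comparisons are descriptions and not tests. MAC PU.1 peaks were also denser at these genes, with a median of 2.05 per 10 kb against 0.524 over all coding genes. The part of this density in the overlap was not tested. By gene, 6 of 7 C/EBPβ peaks were on PU.1 at Ncf4, 5 of 8 at Rac2, 4 of 6 at Cyba, 3 of 6 at Cybb and 2 of 4 at Ncf1. Every gene thus had such a region in its 20 kb window, as did 57.5% of all coding genes, but within the gene spans alone Ncf1 had no MAC C/EBPβ peak and so no such region. Conversely 20 of the 51 MAC PU.1 peaks (39.2%, interval 25.8 to 53.9%) carried C/EBPβ, against 28.5% of the whole PU.1 list. C/EBPβ was found in MAC at 4 of the 9 PU.1 sites that were already in HP (44.4%) and at 16 of the 42 others (38.1%), and the intervals of these shares (13.7 to 78.8% and 23.6 to 54.4%) overlap. In the whole MAC PU.1 list the same shares were 36.7% of the peaks already in HP and 27.3% of the others. The centres of the 2 factors were a median of 74 bp apart at the genes and 65 bp in the whole lists.

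When overlapping peaks were merged, the 94 peaks formed 64 regions, 11 at Cybb, 12 at Cyba, 9 at Ncf1, 17 at Ncf4 and 15 at Rac2. Both macrophage factors covered 20 of them, 26 were found in the MAC PU.1 list alone and 11 in the MAC C/EBPβ list alone. A further 5 were bound by PU.1 in HP and MAC without C/EBPβ, and 2 had no macrophage peak, the MES C/EBPβ peak near Ncf4 and the HP RUNX1 peak near Rac2. A region was bound in HP and MAC in 10 cases, and in 3 lists in 5, namely both intronic sites of Cyba, the downstream site of Ncf1, and the start of Ncf4 and its intronic site at 3.02 kb. No region was bound in 4 lists.

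How many peaks held a PU.1 match depended on the letters asked for. GAGGAAGT was in 13 of the 51 MAC PU.1 peaks (25.5%, interval 14.3 to 39.6%), against 24.4% of the whole list. It was in 2 of the 9 HP PU.1 peaks (22.2%, interval 2.81 to 60%), those of Cyba and of the start of Ncf4, against 42.1% of the whole list. With the shorter letters GAGGAA the shares were 62.7% of the MAC PU.1 peaks, against 65.3% of the whole list, and 55.6% of the HP PU.1 peaks (interval 21.2 to 86.3%), against 76.1%. TTGCNNAA was in 8 of the 31 MAC C/EBPβ peaks (25.8%, interval 11.9 to 44.6%), against 41.9% of the whole list. These 8 peaks were 3 at Cybb, 1 at Cyba, 1 at Ncf4 and 3 at Rac2, and none was at Ncf1. The AP-1 letters were in 9 of the 31 MAC C/EBPβ peaks (29%) and 11 of the 51 MAC PU.1 peaks (21.6%), against 23.3% and 15.8% of the whole lists. Each whole-list share lay within the interval of the share at the oxidase genes.

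The same rule was applied to 10 regulators and partners of the phagocyte oxidase and to 9 genes of the oxidases of other tissues. All 10 regulators had peaks of MAC PU.1 and MAC C/EBPβ, and 8 had a peak of HP PU.1, against 79.1%, 73.8% and 38.2% of all coding genes, so that the macrophage counts are near the background. Some of their windows were far longer than the median of 57.2 kb, such as those of Dock2 (597 kb) and Prkcb (385 kb). Their median density was 1.5 MAC PU.1 and 0.962 MAC C/EBPβ peaks per 10 kb, against 0.524 and 0.317 over all coding genes. Prkcd, a protein kinase C that phosphorylates p47phox, was the most densely bound of the 10 by MAC PU.1 with 2.39 per 10 kb, and had 17 MAC PU.1, 9 MAC C/EBPβ and 6 HP PU.1 peaks. Rac1, the close relative of Rac2, had 12 MAC PU.1 and 8 MAC C/EBPβ peaks, against 11 and 8 at Rac2, and 0 in HP PU.1. Cybc1, whose product is needed for gp91phox to be made in normal amounts, had 4 and 3, with 2 in HP PU.1. Vav1, an exchange factor for Rac proteins, had 14 and 10, with 4 in HP PU.1 and 1 each of C/EBPβ, GATA1, GATA2, GFI1B and RUNX1 in HP.

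Of the 9 genes of other oxidases, 8 had a peak of MAC PU.1, 5 of MAC C/EBPβ and 2 of HP PU.1, against 79.1%, 73.8% and 38.2% of all coding genes. Their median density was 0.934 MAC PU.1 and 0.0515 MAC C/EBPβ peaks per 10 kb, against 2.05 and 1.2 for the 5 phagocyte genes and 0.524 and 0.317 over all coding genes. Nox3, the oxidase of the inner ear, had no peak in any list, and Nox4 and Nox1, the catalytic subunits best known from kidney and colon, had 1 and 2 MAC PU.1 peaks and 1 MAC C/EBPβ peak each. Noxa1 and Noxo1, the activator and the organizer used with Nox1, had 7 and 5 MAC PU.1 peaks and 4 and 2 MAC C/EBPβ peaks, so that Noxa1 had the counts of Ncf1 in both macrophage lists. The 4 genes Duox1, Duox2, Duoxa1 and Duoxa2, which encode the dual oxidases and their maturation factors, are neighbours with overlapping windows, and together they held 7 different MAC PU.1 peaks and 1 MAC C/EBPβ peak. The counts and medians of the 9 genes above therefore include shared peaks more than once.

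**Figure D4:**
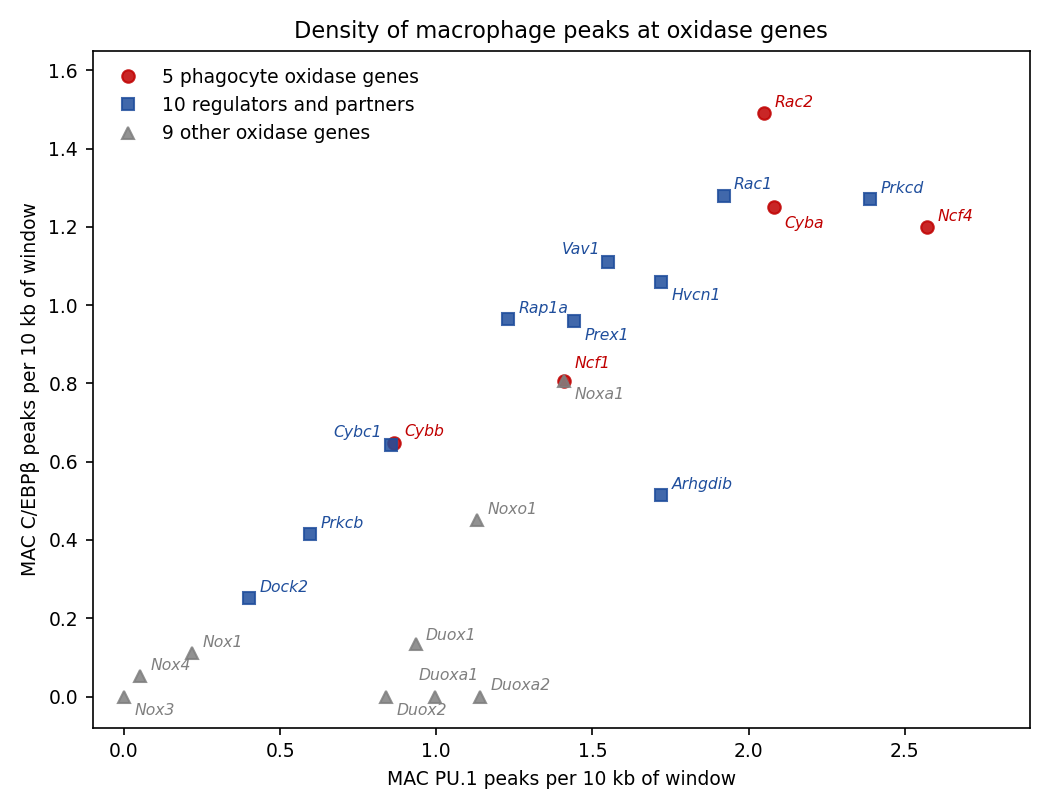
MAC PU.1 (horizontal) and MAC C/EBPβ (vertical) peaks per 10 kb of window at the 5 phagocyte oxidase genes (red circles), their 10 regulators and partners (blue squares) and 9 genes of other oxidases (grey triangles). Ncf4, Cyba and Rac2 stand at the upper right, Cybb and Ncf1 lower, while Noxa1 (0.807) and Noxo1 (0.451) lie highest for C/EBPβ among the 9 genes of other oxidases, whose other members are at 0.133 or less.

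The coding genes whose counts over the 14 lists were most like those of each gene, by the sum of absolute differences, were also looked up. For Cyba they were Ephx3 and Itgax, both with a sum of 0, in a tie of 6 genes. For Rac2 they were Snx8 (0) and Fcgr2b (1). For Ncf1 they were Wscd2 (0) and Eno2 (1), and for Ncf4 Zcwpw1 and Acsl5 (2 each, in a tie of 3). The pattern of Cybb was shared by 22 genes with a sum of 0, of which Mapre3 and Stum had the window lengths nearest to its own. Most of the 14 counts of each oxidase gene were 0, so likeness rested on few lists.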

How the data were processed

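The study's methods state that the authors trimmed reads with CutAdapt, aligned them to mm10 (GRCm38) with Bowtie, kept unique reads, removed duplicates with Picard, called peaks with MACS against the input of the same stage at a threshold chosen by eye for each list, and refined them with polyPeak. Some lists merged technical sequencing runs. Bowtie, bedtools and mm10 also stand in the submitters' processing notes, and versions are not given in the sources used here. The deposited files give peak positions in bp, a start and an end 400 bp apart, without height or p-value. Sequencing depth per list was not used here, and because thresholds differed, the length of a list is no measure of how much a factor bound. Groups (factor and stage) came from the sample titles, with 1 list each and therefore no test.

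Here, peaks were intersected with RefSeq gene spans extended by 20 kb. A distance runs from the peak centre to the nearest start of a protein-coding transcript of the gene, with 84748 starts over all genes, and a promoter peak lies within 2 kb. The background is the share of coding genes called by the same rule. Percentages carry exact 95% intervals. Consensus sequences were searched as exact letters, and 3 of the 5 genes matched the RefSeq promoter table. The 10 regulators and the 9 other oxidase genes were lists set by name, without a selection rule. The nearest-start genes and the 2 most alike genes were named by rule. The members and lists were chosen with earlier results of these data known. In HP PU.1, 1 peak lay outside chromosomes 1 to 19, X and Y. Alternatives covered the window, the assignment, the overlap, the promoter distance and the consensus. Python 3.11.15, NumPy 2.4.6, SciPy 1.17.1 and Matplotlib 3.10.9 were used, and programs were tested on simulated data.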

Additional observations from a re-analysis of the deposited data

How the results depend on the processing

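Of 42 alternative values over 12 results, 38 stayed within 1.5 times the count or within the interval of the share, and 4 moved. The intervals of the shares were wide, such as 2.5 to 100% for the HP C/EBPβ peaks (1 of 1). Staying within such an interval says little. The number of peaks at the 5 genes was 94 with 20 kb on each side, 41 within the gene spans alone and 161 with 50 kb, which follows from the size of the window. It was 75 with 10 kb and 76 when each peak was given to the gene with the nearest start. By that assignment the order of the genes changed, and Cyba instead of Ncf1 had the fewest MAC PU.1 and MAC C/EBPβ peaks. Combinations of gene and list with a peak numbered 14 to 20. No window tried gave Cybb a peak in HP. With 50 kb, Ncf1 had 1 peak of HP RUNX1 beside that of Rac2, and within the gene spans alone no gene had such a peak. Within 500 bp of a start, HP C/EBPβ had a promoter peak at 0 of the 5 genes, since its peak at Cyba lay farther away. With the shorter PU.1 letters GAGGAA, 62.7% of the MAC PU.1 peaks at the genes held a match, against 65.3% of the whole list. The share of MAC C/EBPβ peaks on PU.1 ranged from 51.6 to 75%. No paired analysis was possible because each factor and stage had 1 list and no result came from a test.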
